A study of Arabidopsis thaliana with 12 samples.

Results

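Of the 3439 rows of an expression array table, 5 are described here. They are annotated to genes that assemble, build or arrange the photosynthetic membrane of chloroplasts or serve chlorophyll synthesis. The 5 rows carry 7 genes. One row is annotated to PAM68 (AT4G19100) and AT5G52780 together, one to PSB27 (AT1G03600), one to LHB1B2 (AT2G34420), one to LIL3:1 (AT4G17600) and LIL3:2 (AT5G47110) together, and one to AT1G74730. Since the LIL3 genes have another row in the table, theirs among the 5 is called the first LIL3 row. The rows were chosen by their role and selected on their intensities in the treated and water arrays, so the differences between these groups are given for the 5 rows as a description, without p-values.

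Total RNA of wild-type Arabidopsis thaliana, ecotype Columbia 0, was measured on 12 arrays, 6 per group. The treated plants received 2 µM staurosporine, a broad inhibitor of protein kinases, for 4 h, and then ascorbate, an abundant antioxidant of plants, at 25 mM and pH 5.5 for a further 4 h. The water plants received water for 8 h. No group received either compound alone or a solution of pH 5.5 without ascorbate, so the compounds, their order and the pH were tested only together. The labels name neither a tissue nor the origin of the replicates, which are numbered 1 to 6 in both groups, so the spread between arrays may be technical. Of 6 green-tissue markers and 5 root markers, 0 had a row of their own, and so the tissue could not be checked. One marker, RCA, shared each of its rows with AT1G73110. In one of these rows the intensity lay between 1.29 and 1.63 in treated and between 1.23 and 1.5 in water samples, and the other row was listed at 0 on 11 of 12 arrays.

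The light reactions of photosynthesis run in thylakoids, membranes that are stacked into grana and joined by unstacked lamellae. Photosystem II sits mainly in the grana. It is built stepwise around its reaction centre with the help of assembly factors that are not part of the finished complex, and it is taken apart and rebuilt after light damage. Light-harvesting chlorophyll a/b proteins, its antenna, pass absorbed energy to it, and the way they are packed in the grana affects how readily excess energy is released as heat.

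Each array gave 1 linear intensity per row, with array means between 0.857 and 1.04, and 10.3% to 15.2% of rows were listed at 0. None of the 60 values of the 5 rows was 0. In plants measured in bulk, fewer cells of a type and less RNA per cell cannot be told apart. Levels below are intensities as deposited, and differences are treated minus water on a log2 scale after quantile normalization between arrays, with the standard error (SE) of a linear model fitted to the whole table. Over that table, 32.9% of rows passed an adjusted p of 0.05 in limma, 16.7% higher and 16.2% lower in treated samples. Of the 5 rows, 4 passed, 1 higher and 3 lower. The groups did not overlap in 3 of the 5 rows, 1 higher and 2 lower, against 19.8% of all rows, 10.1% higher and 9.74% lower. Because this contrast was known when the rows were chosen, nothing is read from these counts. The median log2 difference was -0.65 in the 5 rows and 0.00 in all rows.

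PAM68 is a thylakoid membrane protein needed early in the assembly of photosystem II, and AT5G52780 encodes its homologue PAM68L, a factor for the assembly of the plastid NDH complex, which returns electrons to the plastoquinone pool. Their shared row fell furthest of the 5. Its intensities in treated replicates 1 to 6 were 0.488, 0.457, 0.237, 0.434, 0.340 and 0.199, against 1.16, 1.08, 1.18, 0.911, 1.55 and 1.48 in water replicates 1 to 6. Every treated array lay below every water array. The mean was 0.359 ± 0.121 in treated and 1.23 ± 0.243 in water samples (SD, n = 6 each). On the log2 scale the difference was -1.85 ± 0.319 (SE), a 3.61-fold fall, and 3.49% of all rows differed by more in either direction. Which of the 2 genes the signal came from was not tested. The row was also the most uneven of the 5 in size of change. The log2 difference was -1.10 in replicates 1 and 2, -1.43 in replicates 3 and 4, and -3.03 in replicates 5 and 6. On the normalized log2 scale both groups contributed. Replicates 5 and 6 averaged -2.38 in treated and 0.65 in water samples. The other treated pairs averaged between -1.33 and -1.08 and the other water pairs between 0.01 and 0.10. Treated replicate 6 stood at -2.89 and treated replicate 5 at -1.86, near the -1.72 of treated replicate 3. As deposited, treated replicates 5 and 6 (0.340 and 0.199) interleaved with treated replicates 3 and 4 (0.237 and 0.434). Without treated replicate 6 the log2 difference was -1.62 ± 0.223 (SE).

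**Figure D1:**
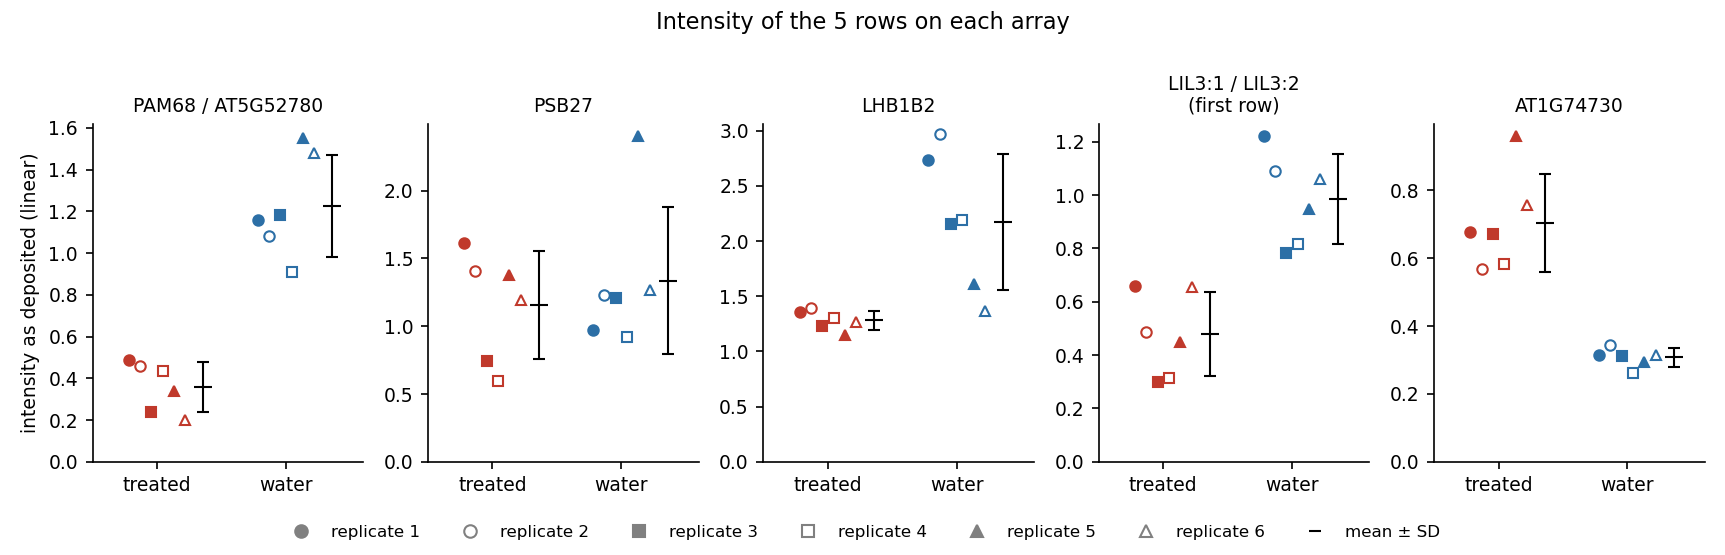
Intensities as deposited (linear, vertical axis) of the 5 rows, with 6 treated arrays in red on the left and 6 water arrays in blue on the right of each panel; symbols mark the replicate number and black bars the mean ± SD. The groups are apart for PAM68 and AT5G52780, for the LIL3 genes and for AT1G74730, they touch for LHB1B2 and they overlap for PSB27.

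PSB27 is a small protein of the thylakoid lumen that takes part in the assembly and repair of photosystem II. It did not pass the test. The treated arrays stood at 1.61, 1.41, 0.743, 0.599, 1.38 and 1.19 for replicates 1 to 6, and the water arrays at 0.973, 1.23, 1.21, 0.920, 2.40 and 1.27. The 2 groups overlapped over most of their range, and the highest and the lowest of the 12 values were water replicate 5 and treated replicate 4. The mean was 1.16 ± 0.401 in treated and 1.33 ± 0.542 in water samples (SD, n = 6 each), with a log2 difference of -0.13 ± 0.274 (SE). The sign was not settled. Treated samples were higher by 0.49 on the log2 scale in replicates 1 and 2, whereas the difference was -0.48 in replicates 3 and 4 and -0.40 in replicates 5 and 6. Leaving out water replicate 5 gave 0.07 and leaving out treated replicate 4 gave 0.01. An SE of 0.274 leaves room for a change in either direction, so a level equal in both groups is not shown.

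LHB1B2 encodes an LHCB1 protein, a main component of the trimeric antenna of photosystem II. Its row fell, with intensities of 1.36, 1.39, 1.23, 1.30, 1.15 and 1.27 in treated replicates 1 to 6 and of 2.74, 2.97, 2.16, 2.19, 1.61 and 1.37 in water replicates 1 to 6. The treated arrays lay close together and the water arrays were spread, with water replicate 6 inside the range of the treated arrays. The mean was 1.29 ± 0.0867 in treated and 2.18 ± 0.619 in water samples (SD, n = 6 each), and the log2 difference was -0.65 ± 0.143 (SE), a 1.57-fold fall. The difference was -0.95 in replicates 1 and 2, -0.71 in replicates 3 and 4, and -0.30 in replicates 5 and 6. Here the water samples carried the unevenness. The treated pairs averaged 0.36, 0.47 and 0.32 on the normalized log2 scale, against 1.31, 1.18 and 0.62 in the water pairs. The neighbouring gene in the TAIR10.1 assembly is LHB1B1, of the same LHCB1 group, whose members are very alike in sequence. Whether transcripts of other LHCB1 genes add to this row was not tested.

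The spread within groups does not use the difference between them, but selecting the rows on their intensities may have affected it. In treated samples it was smallest of the 5 rows for LHB1B2. Its SD over the treated arrays was 0.0903 on the normalized log2 scale, and 93.7% of all rows were more variable there. Its SD over the water arrays was 0.347, with 32.8% of all rows more variable. Over the whole table the water samples were the less variable group, with a median SD of 0.400 in treated and 0.254 in water samples, and the water SD exceeded the treated one in 27.3% of rows. LHB1B2 and PSB27 (0.442 in treated, 0.537 in water) belonged to these rows. The SD of the PAM68 and AT5G52780 row was 0.737 in treated and 0.339 in water samples, that of the first LIL3 row was 0.354 in treated and 0.173 in water samples, and that of AT1G74730 was 0.268 in treated and 0.147 in water samples. No test was made of these spreads.

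**Figure D2:**
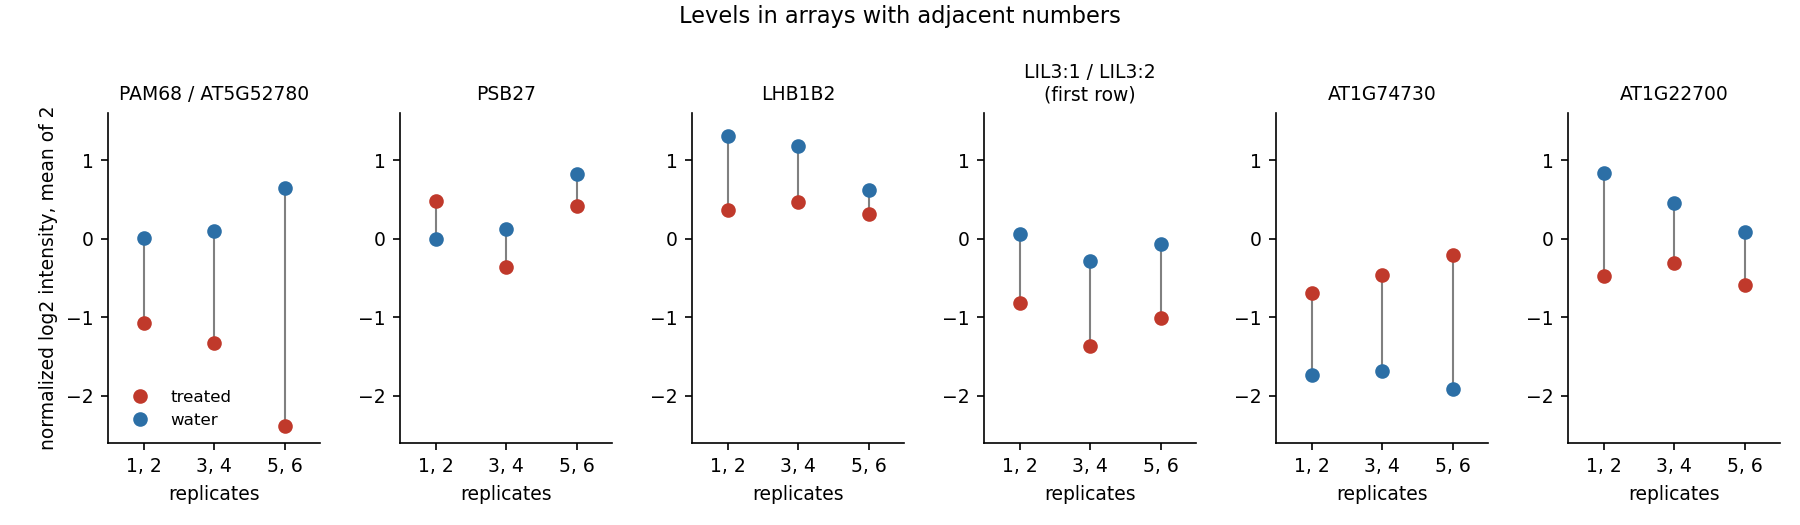
Normalized log2 intensity (vertical axis), averaged over replicates 1 and 2, 3 and 4, and 5 and 6, for the 5 rows and for AT1G22700, with treated samples in red, water samples in blue and a grey line for their difference. For LHB1B2 the treated pairs lie between 0.32 and 0.47 and the water pairs between 0.62 and 1.31, while for PAM68 and AT5G52780 both groups stand apart in replicates 5 and 6.

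LIL3:1 and LIL3:2 are light-harvesting-like proteins. They share a chlorophyll-binding motif with the antenna but serve chlorophyll synthesis, where LIL3 holds geranylgeranyl reductase and protochlorophyllide oxidoreductase at the membrane. The row annotated to both genes fell. Its intensities were 0.660, 0.486, 0.301, 0.313, 0.451 and 0.656 in treated replicates 1 to 6, against 1.22, 1.09, 0.781, 0.815, 0.947 and 1.06 in water replicates 1 to 6. All treated arrays lay below all water arrays, and replicates 3 and 4 were the lowest in both groups. The mean was 0.478 ± 0.158 in treated and 0.986 ± 0.169 in water samples (SD, n = 6 each). The log2 difference was -0.98 ± 0.157 (SE), a 1.97-fold fall. It was the most even of the 5, at -0.89, -1.09 and -0.94 in replicates 1 and 2, 3 and 4, and 5 and 6.

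A second row of the table is annotated to the same LIL3 genes and is not among the 5. Whether its values played a part in leaving it out is not known. This second row did not pass the test. It stood at 0.246, 0.350, 0.418, 0.261, 0.603 and 0.469 in treated replicates 1 to 6 and at 0.439, 0.504, 0.414, 0.438, 0.572 and 0.478 in water replicates 1 to 6. Treated arrays were lower at 4 numbers and higher at 2, and the groups overlapped. The mean was 0.391 ± 0.135 in treated and 0.474 ± 0.0576 in water samples (SD, n = 6 each), a log2 difference of -0.20 ± 0.174 (SE) and an adjusted p of 0.421 in limma. The difference was -0.51 in replicates 1 and 2, -0.15 in replicates 3 and 4 and 0.05 in replicates 5 and 6. It was -0.08 without treated replicate 1 and -0.32 without treated replicate 5, and the row passed the threshold in 0 of the 12 fits that leave out 1 array. The 2 rows were measured on the same arrays with unlike results. Whether they read different transcripts was not tested, so the fall is stated for the first row and for neither LIL3 gene by itself.

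AT1G74730 encodes RIQ2, a thylakoid membrane protein that, with its homologue RIQ1 (AT5G08050), is needed for normal grana stacking and for the arrangement of the antenna that allows release of excess energy as heat. Its row was the single one of the 5 that rose. Treated replicates 1 to 6 stood at 0.677, 0.568, 0.672, 0.584, 0.960 and 0.758, against 0.316, 0.344, 0.313, 0.262, 0.295 and 0.315 in water replicates 1 to 6. The lowest treated array lay above the highest water array, and the water arrays were close together. The mean was 0.703 ± 0.144 in treated and 0.308 ± 0.0273 in water samples (SD, n = 6 each). The difference on the log2 scale was 1.32 ± 0.123 (SE), a 2.50-fold rise, and 9.13% of all rows differed by more in either direction. In replicates 1 and 2, 3 and 4, and 5 and 6 the differences were 1.03, 1.23 and 1.71.

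A second row for this gene is annotated to AT1G74730 and AT5G08050 together. It too is not among the 5, and whether its values played a part in that is not known. Its intensities were 0.478, 0.571, 0.367, 0.0717, 0.899 and 0.934 in treated replicates 1 to 6 and 0.706, 0.876, 0.656, 0.228, 1.0 and 1.03 in water replicates 1 to 6. Same-numbered arrays moved together, with replicate 4 lowest in both groups and replicates 5 and 6 highest. The mean was 0.554 ± 0.328 in treated and 0.750 ± 0.297 in water samples (SD, n = 6 each). They differed by -0.42 ± 0.495 (SE) on the log2 scale, and by -0.45, -0.77 and -0.04 in the 3 pairs of numbers. The difference was -0.04 without treated replicate 4 and -0.70 without water replicate 4. The adjusted p in limma was 0.563, or 0.0530 when the replicate number was a block. Treated arrays were lower at 6 of 6 numbers, the opposite sign to the first row, but the change passed the threshold in neither fit. Which of the RIQ transcripts each row reads was not tested.

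**Figure D3:**
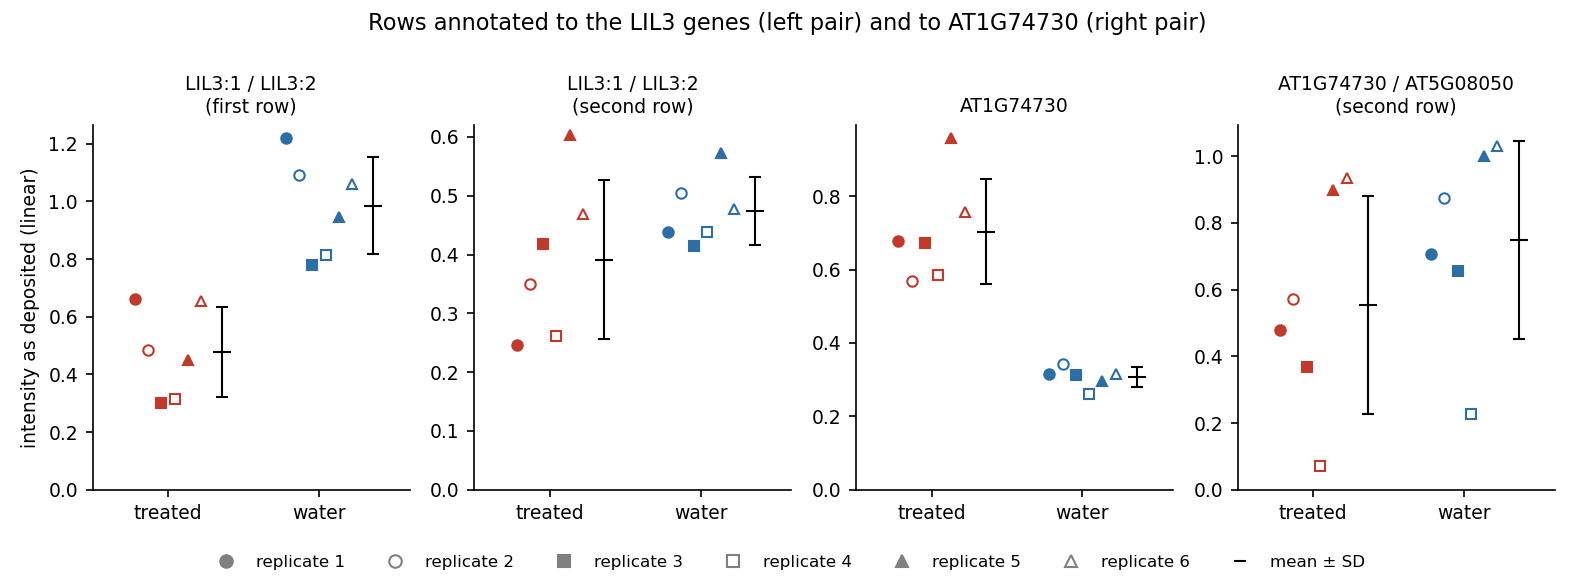
Intensities as deposited (linear, vertical axis) of both rows annotated to LIL3:1 and LIL3:2, and of the row of AT1G74730 and the row of AT1G74730 and AT5G08050, with treated arrays in red on the left, water arrays in blue on the right and the mean ± SD in black. Treated arrays lie below water arrays in the first LIL3 row and above them in the row of AT1G74730 alone, whereas the groups overlap in both second rows.

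Within a group, arrays 1 and 2, 3 and 4, and 5 and 6 resembled each other more than other arrays did, for which the labels give no reason. After the group mean was subtracted from each row, they correlated between -0.0876 and 0.642 across rows, and all other arrays of a group at -0.197 or below. The 6 arrays of a group may therefore hold fewer than 6 independent values. When the arrays 1 and 2, 3 and 4, and 5 and 6 of each group were averaged before the fit, 12.2% of all rows passed and 2 of the 5 rows did, AT1G74730 and the first LIL3 row. The row of PAM68 and AT5G52780 and that of LHB1B2 no longer passed, with the same log2 differences and SEs of 0.405 and 0.204. On these means the groups did not overlap in 4 of the 5 rows, against 35.1% of all rows. The direction within the pairs of numbers was the same in 3 of 3 pairs for each row but PSB27. The share of all rows for which this holds was not counted. Since the rows were selected on this contrast, nothing is read from it.

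**Figure D4:**
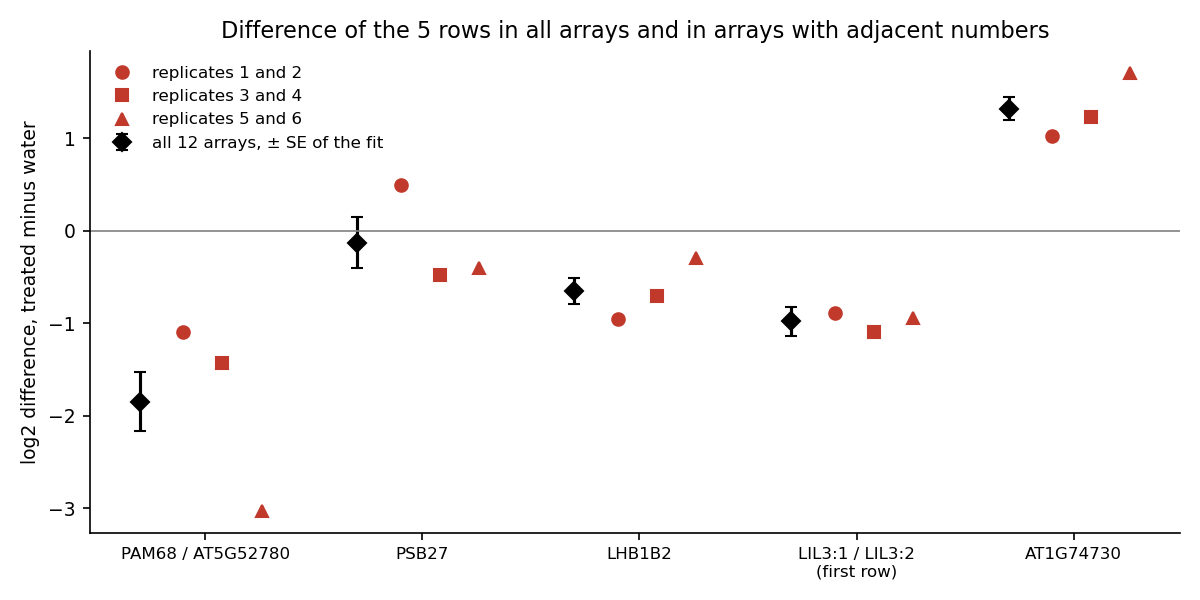
Log2 difference, treated minus water (vertical axis), of the 5 rows in all 12 arrays (black, ± SE of the fit) and in replicates 1 and 2, 3 and 4, and 5 and 6 (red). PAM68 and AT5G52780 range from -3.03 to -1.10, LHB1B2 from -0.95 to -0.30 and AT1G74730 from 1.03 to 1.71, while PSB27 lies on both sides of 0.

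To place the 5 rows among genes of related function, 6 lists with 86 genes were drawn up: assembly and repair of photosystem II (30 genes), light-harvesting proteins (21), light-harvesting-like proteins (9), targeting of antenna proteins (5), thylakoid organization (13), and assembly of photosystem I and NDH (10), with 2 genes in more than one list. The lists were drawn up with earlier results of these data known, so the counts and p-values of list genes are a description. Few of the genes had a row of their own. Beside PSB27, LHB1B2 and AT1G74730, 4 genes did, of which 1 rose, 1 fell and 2 did not pass. Against a background of 32.9% of rows called, 2 of 4 is too small a number to set the lists apart. Their median log2 difference was 0.19, against 0.00 in all rows. By list, 0 of 3 genes of photosystem II assembly and repair passed in limma. An unadjusted p under 0.05 was met by 1 of 3, and the share of all rows at that cut was not counted. The single light-harvesting gene, LHB1B2, fell, and so did the single gene of photosystem I assembly. In thylakoid organization 2 of 2 genes rose, where 16.7% of all rows were called higher. They were AT1G74730, chosen with this contrast known, and FZL, whose call depended on how low values were treated. The 2 rows of this list with several genes had log2 differences of -0.42 and -0.19 and did not pass. No rise of the list as a whole is read from this. The light-harvesting-like and antenna-targeting lists had 0 genes on a row of their own.

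FZL, a dynamin-like protein that shapes thylakoids and chloroplasts, rose on a dim row. It stood at 0.0860, 0.0902, 0.142, 0.177, 0.298 and 0.280 in treated replicates 1 to 6 and was listed at 0 on water replicates 1 and 2, with 0.0267, 0.0454, 0.0536 and 0.0522 on water replicates 3 to 6. The groups did not overlap, but all values were low. The log2 difference was 2.68 ± 0.378 (SE, limma adjusted p 0.000322), and its size rests on how low values are treated. With a pseudocount of 0.0835 it was 1.30 (limma adjusted p 0.000457). With low values raised to 0.144 it was 0.34 and no longer passed (limma adjusted p 0.112), a setting in which 9 of the 12 arrays of FZL stand at the raised value.

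AT1G22700, known as PYG7, a thylakoid protein needed to assemble photosystem I, fell. It stood at 0.656, 0.811, 0.706, 0.691, 0.708 and 0.664 in treated replicates 1 to 6, against 1.97, 2.04, 1.35, 1.30, 1.11 and 1.12 in water replicates 1 to 6. The treated arrays were alike and all below the water arrays, which were spread, as for LHB1B2. In log2 the difference was -0.92 ± 0.149 (SE, limma adjusted p 0.000829), and the limma adjusted p was 0.0631 on means of adjacent arrays. LPA19, a PSB27-related lumenal protein that aids photosystem II assembly, stood at 0.301 ± 0.0591 in treated and 0.342 ± 0.0368 in water samples (SD, n = 6 each; limma adjusted p 0.618). AT1G54500, the rubredoxin RBD1, which photosystem II assembly needs, stood at 0.426 ± 0.0531 in treated and 0.326 ± 0.0907 in water samples (limma adjusted p 0.0549). It was higher in treated arrays at 6 of 6 numbers, but unevenly, by 0.25, 1.07 and 0.17 on the log2 scale in the 3 pairs of numbers. The call depended on the setting. It passed in 4 of the 12 fits that leave out 1 array (treated replicate 5 or 6, water replicate 1 or 2), with limma adjusted p between 0.0367 and 0.104 over the 12. Of the 9 remaining alternatives it passed in 2, a pseudocount (0.0497) and the removal of dim rows (0.0375), and in 7 it did not, among them the table as deposited (0.116), the replicate number as a block (0.0794), the random block (0.136) and means of adjacent arrays (0.246).

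A further 8 rows are annotated to a list gene together with other genes, and 0 of them passed in limma with all 12 arrays, with adjusted p between 0.134 and 0.569, and 0 of 8 had an unadjusted p under 0.05. With the replicate number as a block, 1 of the 8 passed, where 36.4% of all rows did, and 3 of 8 had an unadjusted p under 0.05. The share of all rows with an unadjusted p under 0.05 was not counted in either fit, so nothing is read from those counts. The row that passed with the block is annotated to AT4G28740 and LPA1, the second a factor in the assembly of photosystem II. It was singled out after its values were seen. Its intensities were 0.952, 0.981, 0.424, 0.163, 0.673 and 0.674 in treated replicates 1 to 6, against 0.658, 0.697, 0.333, 0.176, 0.496 and 0.646 in water replicates 1 to 6. Replicate 4 was lowest in both groups, and the groups overlapped. After normalization treated arrays were higher at 6 of 6 numbers, by 0.14 to 0.63 on the log2 scale, while before it they were lower at number 4. The mean difference was 0.43, with an SE of 0.388 and a limma adjusted p of 0.451 without the block, and an SE of 0.0836 and a limma adjusted p of 0.0111 with it. Without treated replicate 4 the difference was 0.69 and without water replicate 4 it was 0.20, in fits without the block, and the row passed in 0 of the 8 remaining alternatives. Which of the 2 genes the row reads was not tested. The 8 rows also include the second rows of the LIL3 genes and of AT1G74730. The row of LHCB4.1, LHCB4.2 and LHCB4.3, minor antenna proteins that link photosystem II to its trimers, stood at 0.267 ± 0.148 in treated and 0.405 ± 0.0597 in water samples (SD, n = 6 each), with differences of -1.47, -0.43 and 0.04 in the 3 pairs of numbers. The row of AT4G01150 and AT4G38100, CURT1 proteins that bend the margins of grana, stood at 1.33 ± 0.134 in treated and 1.54 ± 0.130 in water samples (SD, n = 6 each).

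**Figure D5:**
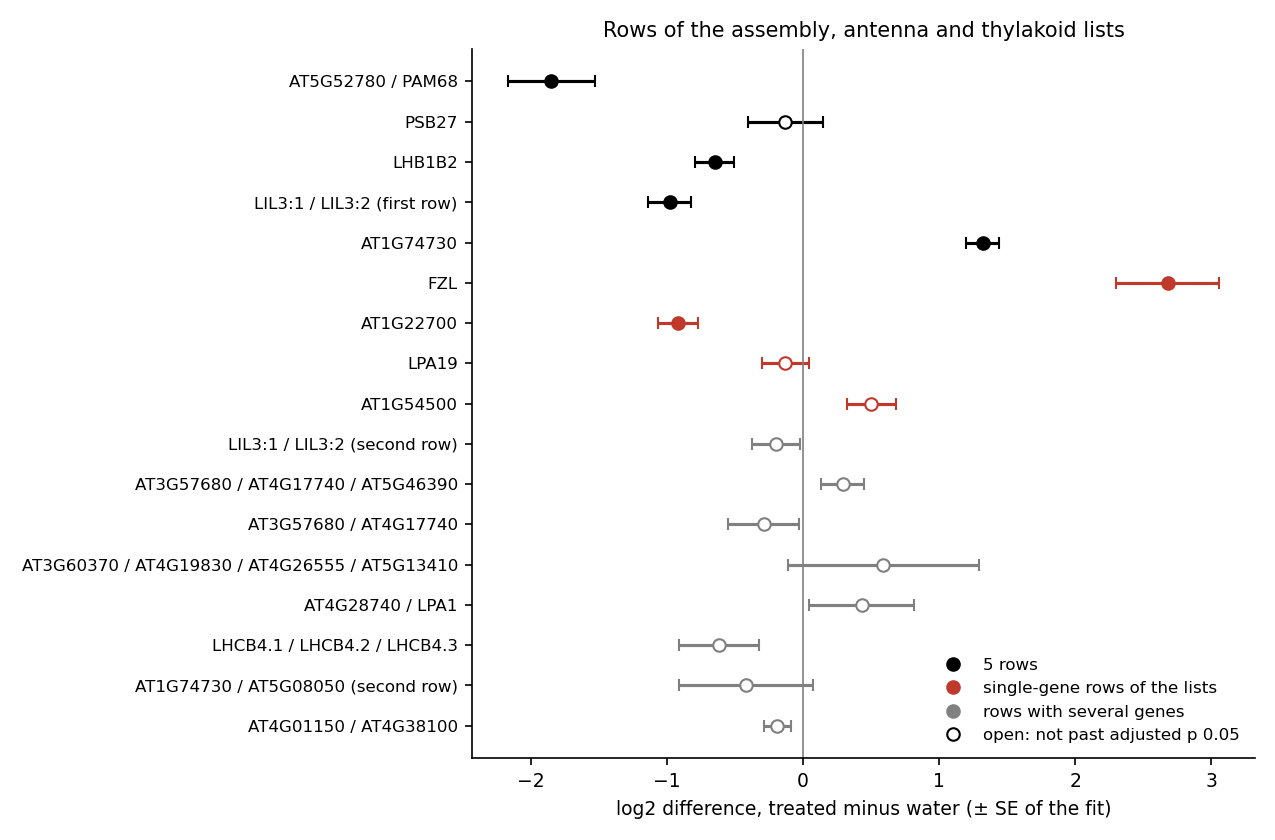
Log2 difference, treated minus water (horizontal axis, ± SE of the fit), of the 5 rows in black, of the 4 other list genes with a row of their own in red and of the 8 rows with several genes in grey, with open symbols for rows that did not pass an adjusted p of 0.05. FZL at 2.68 and AT1G74730 at 1.32 lie furthest right, PAM68 and AT5G52780 at -1.85 furthest left, and all 8 rows with several genes are open.

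Among 498 rows with a single gene, with a mean above the dimmest 25% of all rows and never at 0, the 3 with the most similar values over the 12 arrays were found for each of the 5 rows. The arrays share the group contrast and the resemblance of adjacent numbers, so Pearson's r is given as a description only. For LHB1B2 the nearest was AT1G22700 (r = 0.947), the photosystem I assembly gene above, followed by AT1G50000 (0.928) and AT5G38360 (0.926). After each group's mean was removed these stood at 0.838, 0.792 and 0.760. For the row of PAM68 and AT5G52780 the nearest were AT4G08940 (0.970), AT1G01250 (0.946) and the clock-controlled CCL (0.939), at 0.962, 0.896 and 0.816 without the group means. For the first LIL3 row they were PSAN, a lumenal subunit of photosystem I (0.886), DAL1 (0.867) and AT1G03810 (0.862). Without the group means these fell to 0.159, 0.134 and 0.263, so the likeness lay mainly in the contrast between groups. For AT1G74730 they were AT3G32930 (0.977), AT3G52070 (0.965) and AT1G68660 (0.963), at 0.674, 0.530 and 0.656 without the group means. For PSB27, whose groups overlapped, r was the lowest of the 5 rows, with AT4G24750 at 0.795, AT4G19900 at 0.681 and AT1G73470 at 0.657. Without the group means these hardly changed, at 0.793, 0.674 and 0.648. On that measure AT4G24750 was nearer to PSB27 than any of the genes named for AT1G74730 or the first LIL3 row was to its row.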

How the data were processed

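The authors deposited linear intensities, 1 for each row on each array. Their scanner, background correction and scaling, and the meaning of a 0, are not given in the sources used here. Groups and replicate numbers come from the sample titles. Each 0 was replaced by 0.0157, the 1st percentile of the positive intensities. After log2 the array medians ranged from -1.51 to -1.04, so quantile normalization was applied, which removes any shift common to most RNAs. Groups were compared over all 3439 rows in limma 3.58.1 (R 4.3.3), with group as the only term, Benjamini-Hochberg adjustment and a threshold of 0.05. Figures used matplotlib 3.10.9 in Python 3.11.15.

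Genes were taken from the platform annotation, which can be old. It names 1 gene for 692 rows and several for 870, and the 1877 rows absent from it stay unnamed. Symbols and loci follow TAIR10.1.

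The members and lists were chosen with earlier results of these data known. Named genes were the members, all list genes with a row of their own, and the 3 rows most like each member. The method was tested on simulated data in which all arrays were independent. That test therefore does not cover the resemblance between arrays of adjacent or equal numbers seen here. After group means were subtracted, treated and water arrays of the same number correlated between 0.302 and 0.425. All exceeded 0.1, the limit for taking the samples as paired by number, yet the main fit has no term for the number. The labels do not say what a number stands for, and arrays of other numbers reached 0.336. With the number as a block the SE was 0.392 for PAM68 and AT5G52780, 0.214 for PSB27 and 0.129 for LHB1B2. It was 0.0815 for the first LIL3 row and 0.143 for AT1G74730. SEs and adjusted p-values without a named setting come from the unpaired fit. Alternatives were no normalization, median centring, raising all values below the 10th percentile to it, adding 0.0835 before log2, leaving out the dimmest 25% of rows, a trended variance, the replicate number as a block, each array left out in turn, and adjacent arrays averaged, as a random block or alone.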

Additional observations from a re-analysis of the deposited data

Results flagged for a closer look

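In 4 of the 34 groups of 6 arrays looked at, 1 array stood well away from its group, which about 1 in 20 groups would do by chance. For PSB27 it was water replicate 5, at 1.32 on the normalized log2 scale, whereas the remaining water arrays lay between -0.19 and 0.33. Without it the row's log2 difference was 0.07 in place of -0.13. For the row annotated to AT1G74730 and AT5G08050 it was water replicate 4, at -2.0, whereas the remaining water arrays lay between -0.64 and -0.04. Treated replicate 4 was the lowest of its group in this row too, at -2.91. The log2 difference of -0.42 became -0.04 without treated replicate 4 and -0.70 without water replicate 4. For the row annotated to AT3G57680 and AT4G17740 it was treated replicate 1, at -3.58, whereas the remaining treated arrays lay between -2.50 and -1.91. Without it the log2 difference was -0.06 in place of -0.29. For the row annotated to AT3G60370, AT4G19830, AT4G26555 and AT5G13410 it was water replicate 1, at -5.99, whereas the remaining water arrays lay between -2.88 and -1.59. Without it the log2 difference was -0.07 in place of 0.59.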

How the results depend on the processing

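The 4 rows past the threshold kept their direction under every alternative run. All 4 also passed with the table as deposited, where 39.2% of calls were higher in treated samples against 50.7% after normalization, with the floor at the 10th percentile, with the pseudocount, without dim rows, with a trended variance, with the random block of adjacent arrays and without any 1 array. LHB1B2 missed the threshold with median centring, and 2 of the 5 rows passed on means of adjacent arrays. The replicate number as a block changed no call among the 5 rows or the 4 list genes, brought the row of AT4G28740 and LPA1 past the threshold (limma adjusted p 0.0111, against 0.451) and gave 1252 rows in all, against 1131. The random block gave 753 rows and means of adjacent arrays 418. Without any 1 array the log2 difference of PSB27 ranged from -0.23 to 0.07. With replicates 1 and 2 alone the log2 difference was -1.10 for PAM68 and AT5G52780, 0.49 for PSB27, -0.95 for LHB1B2 and 1.03 for AT1G74730. With replicates 5 and 6 alone it was -3.03 for PAM68 and AT5G52780, -0.30 for LHB1B2 and 1.71 for AT1G74730, and the cause was not tested. Of the 4 list genes outside the 5 rows, 1 passed with the floor at the 10th percentile, which raises most FZL values to the same number, and 1 passed on means of adjacent arrays, which leaves 3 values per group. The alternatives for list genes were added after the annotation was read, and those for rows with several genes after their values were seen. The number of arrays limits the precision, and signal over background is unknown.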

Other observations

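How far rows with the same annotation resemble each other was counted after the second rows of the LIL3 genes and of AT1G74730 had been seen. In the whole table, 91 sets of genes are annotated to exactly 2 rows each, and 90 of these sets hold several genes. The log2 differences of the 2 rows had the same sign in 45 of the 91 sets, so a shared annotation did not go with a shared direction. In 4 sets both rows passed the threshold in limma with all 12 arrays. In these 4 sets the direction was the same, too few to read anything from. In 43 sets 1 row passed and the other did not, as for the LIL3 genes. The 32.9% of all rows that passed is a share of single rows and not of pairs. Neither count of sets was compared with pairs of unrelated rows, so nothing is read from them. The median gap between the 2 differences was 0.50 on the log2 scale, and that of the LIL3 rows was 0.77, exceeded in 35 sets. Why rows of the same genes differed was not tested.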
